A study of Rattus norvegicus with 6 samples.

Results

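The genes described here build elastic fibres: elastin (Eln), the fibulins Fbln1, Fbln2, Fbln5, Efemp1 (fibulin-3) and Efemp2 (fibulin-4), fibrillin-1 (Fbn1), the microfibril-associated protein Mfap4, and the crosslinking enzymes Lox and Loxl1. All probe sets that the array annotation maps to exactly 1 of these symbols were taken, which gave 15 of the 31042 probe sets tested and 10 of 14217 measured genes. Eln, Fbln1, Fbn1, Efemp2 and Lox have 2 probe sets each, called the brighter and the dimmer by their mean over all rats, and the other 5 genes have 1. The list follows gene function and uses no threshold on a value. The list was chosen by function with log2 differences between the strains on these same arrays known, those of Fbln5 and Mfap4 among them, so the values of these genes in this comparison are a description and no evidence that the family as such responds.

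The study compared the kidneys of 3 congenic S.LEW(10)x12x2x3x5 rats with those of 3 Dahl S rats, the salt-sensitive control strain, on Affymetrix rat expression arrays, with 1 array per animal. All 6 rats were males on the Dahl S background, shared a birth date, were weaned at day 30 onto low-salt food (0.3%) and were killed at the age of 53 days. The congenic rats carry chromosome 10 material of the Lewis (LEW) strain, in a study concerned with proteinuria and endosomal recycling in the proximal tubule. Each rat is a separate animal, and the number of arrays limits the precision. The values were read as log2 probe set intensities from their range, on which a difference of 1 is a 2-fold change. Umod, the uromodulin gene of the thick ascending limb, averaged 14.62 in congenic and 14.72 in S rats, and Slc34a1, a proximal tubule phosphate transporter, 14.17 and 13.88, which fits the label kidney.

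An elastic fibre consists of a core of crosslinked elastin on a scaffold of fibrillin microfibrils. Fibulin-4 and fibulin-5 bring elastin and the lysyl oxidases together, and Lox and Loxl1 oxidise lysines of elastin so that its molecules become crosslinked. Vascular smooth muscle cells and fibroblasts make most of these proteins, and in the kidney elastic fibres lie mainly in the walls of arteries. Fibrillin microfibrils occur without elastin too, as in the glomerulus, and they bind latent TGF-β.

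Messages for elastin and fibrillin-1 at 1 of the 2 probe sets of each, for fibulin-5 and for Mfap4 were higher in congenic kidneys, by 1.49-fold to 1.92-fold. Those of the crosslinkers Lox and Loxl1, of Fbln2 and of Efemp1 lay within 0.09 of 0 on the log2 scale at their brightest probe sets. At the other probe set of each, Eln stood at 0.13, Fbn1 at 0.27 and Lox at 0.33. Efemp2 stood at 0.03 at its brighter and 0.38 at its dimmer probe set. A threshold of 0.05 on the Benjamini-Hochberg adjusted p, from limma fitted to all probe sets, was passed by 5 of the 15 probe sets, all of them higher. Of all 31042 probe sets 3.47% passed as higher and 6.00% in either direction. By the brightest probe set of each gene, 3 of the 10 passed as higher (Eln, Fbln5 and Mfap4), against 2.12% of all 14217 genes (2.67% passed as lower), and their median log2 difference was 0.18, against -0.03 for all genes. Nothing about the family is read from these shares, since the genes were chosen with this comparison known. In 6 of the 15 probe sets every congenic rat lay above every S rat, against 12.7% of all probe sets. In 0 of the 15 every congenic rat lay below, against 5720 of all 31042. These shares too are a description. The calls depended on single rats, over the whole array as for these genes. When S rat 3, congenic rat 2 or congenic rat 3 was left out, 0, 0 and 8 of the 31042 probe sets passed, and 0 of the 15 each time (limma, with 6, 7 and 5 of the 15 under an unadjusted p of 0.05). Under that unadjusted p lay 6968, 5575 and 5359 of all probe sets. The differences of the 5 kept their direction and most of their size without any 1 rat: 0.88 to 1.02 for Mfap4, 0.50 to 0.62 for Fbln5, 0.59 to 0.82 for the brighter Eln, 0.61 to 0.75 for the dimmer Fbn1 and 0.33 to 0.44 for the dimmer Efemp2 probe set. The count was 6 without S rat 1 and 3 without congenic rat 1, against 4752 and 350 of all probe sets. The median was 0.07 without S rat 1 and 0.30 without S rat 2.

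**Figure D1:**
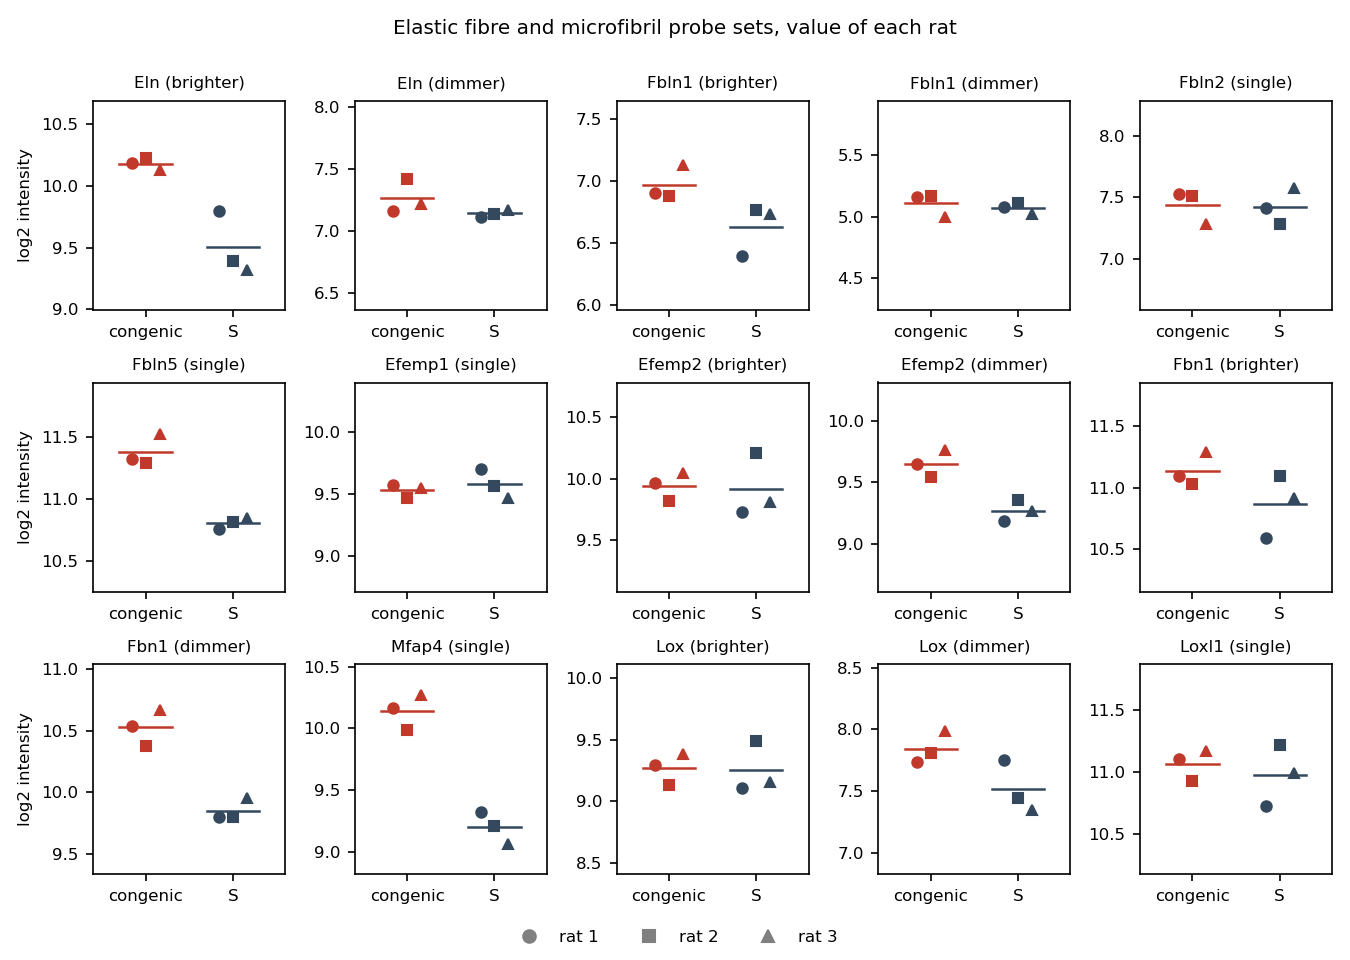
Log2 intensity (vertical axis, the same span in every panel) of the 15 probe sets in congenic and S rats, 1 symbol per rat (circle, square and triangle for rats 1, 2 and 3) with the group mean as a line. Congenic rats lie above all S rats at the brighter Eln and Fbln1, the dimmer Efemp2 and Fbn1, Fbln5 and Mfap4 probe sets.

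Elastin was higher at 1 of its probe sets. At the brighter one the congenic rats were at 10.18, 10.23 and 10.13, and the S rats at 9.79, 9.39 and 9.32. The groups did not overlap, and S rat 1 stood above the other S rats. The difference was 0.68 ± 0.12 (log2, SE), or 1.60-fold with a 95% interval of 1.33 to 1.93. At the dimmer probe set the congenic rats were at 7.16, 7.42 and 7.22 and the S rats at 7.11, 7.14 and 7.17. The groups overlapped there, and the difference of 0.13 ± 0.08 did not pass.

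Fibrillin-1, the main component of microfibrils, also differed between its probe sets. At the dimmer one the congenic rats were at 10.54, 10.37 and 10.67, and the S rats at 9.79, 9.80 and 9.95. This is a difference of 0.68 ± 0.09 (log2, SE), 1.60-fold, with no overlap. At the brighter one the congenic rats were at 11.09, 11.03 and 11.29 and the S rats at 10.59, 11.09 and 10.91. S rat 2 reached the level of the congenic rats there, and the difference of 0.27 had a 95% interval of -0.02 to 0.56.

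Mfap4, which binds fibrillin-1 and elastin, had the largest difference of the 10 genes. The congenic rats were at 10.17, 9.99 and 10.27 and the S rats at 9.32, 9.21 and 9.07. All congenic rats stood above all S rats, with group means of 10.14 ± 0.14 and 9.20 ± 0.13 (SD, n = 3 each). The difference of 0.94 ± 0.10 (SE) is 1.92-fold, with a 95% interval of 1.65 to 2.24. Mfap4 is the only one of the 10 genes on chromosome 10, which also holds Rffl, the ubiquitin ligase gene studied in this congenic segment. Between Mfap4 and Rffl lie 413 protein-coding genes of the GRCr8 annotation. The limits of the LEW segment, and LEW differences in sequence under the probes, were not analysed here. The other 9 genes lie on 9 further chromosomes.

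Fibulin-5, which binds elastin and is needed for fibre assembly in mice, also separated the groups. The congenic rats were at 11.32, 11.30 and 11.53 and the S rats at 10.76, 10.81 and 10.85. The S rats lay close together, and all below the lowest congenic rat. The difference was 0.58 ± 0.08 (SE), 1.49-fold with a 95% interval of 1.32 to 1.69. Fibulin-4 (Efemp2), which in mice is needed for elastin crosslinking, was higher at its dimmer probe set, where the congenic rats were at 9.65, 9.54 and 9.76 and the S rats at 9.18, 9.35 and 9.26. That difference of 0.38 ± 0.08 is 1.30-fold. At the brighter Efemp2 probe set the congenic rats were at 9.96, 9.82 and 10.05 and the S rats at 9.73, 10.21 and 9.81, so that S rat 2 was the highest of all 6. The difference there was 0.03 ± 0.13.

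The remaining fibulins did not pass. At the brighter probe set of Fbln1, a fibulin of basement membranes and elastic fibres, the congenic rats were at 6.90, 6.88 and 7.13 and the S rats at 6.39, 6.77 and 6.73. The groups did not overlap, and the difference was 0.34, with a 95% interval of 0.08 to 0.60. The dimmer Fbln1 probe set had means of 5.11 in congenic and 5.07 in S rats, below the lower quartile of every array (5.88 to 5.96), and no detection call was available. For Fbln2 the difference was 0.02 (95% interval -0.21 to 0.24). For Efemp1, whose loss in mice gives hernias, it was -0.05 (-0.23 to 0.13). These intervals leave room for changes of up to about 1.18-fold for Fbln2 and 1.09-fold for Efemp1 upward.

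The crosslinking enzymes gave overlapping groups. At the brighter Lox probe set the congenic rats were at 9.30, 9.13 and 9.39 and the S rats at 9.11, 9.49 and 9.16, a difference of 0.02 with a 95% interval of -0.24 to 0.28. At the dimmer one the congenic rats were at 7.73, 7.81 and 7.98 and the S rats at 7.75, 7.44 and 7.35, a difference of 0.33 (0.07 to 0.59) that did not pass. Only S rat 1 there reached the congenic range. For Loxl1, which in mice maintains elastic fibres in adult tissue, the congenic rats were at 11.11, 10.93 and 11.17 and the S rats at 10.72, 11.22 and 11.00, a difference of 0.09 (-0.20 to 0.37).

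The probed messages come from genes with unlike upstream sequence. RefSeq promoter windows of the GRCr8 assembly, 250 bases before to 50 after an annotated start, were matched for 6 of the 10 genes (Fbln2, Fbln5, Efemp1, Efemp2, Fbn1 and Loxl1). The stretches that lie outside the whole annotated gene are shown for Fbln5, which passed, and for Loxl1 and Efemp1, which did not. Capitals mark GGGCGG, the GC box bound by Sp1, and CAGAC, the core of the SMAD element of TGF-β signalling, each on either strand.
Fbln5: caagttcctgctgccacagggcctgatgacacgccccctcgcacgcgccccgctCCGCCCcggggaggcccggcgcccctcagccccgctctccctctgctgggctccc
Loxl1: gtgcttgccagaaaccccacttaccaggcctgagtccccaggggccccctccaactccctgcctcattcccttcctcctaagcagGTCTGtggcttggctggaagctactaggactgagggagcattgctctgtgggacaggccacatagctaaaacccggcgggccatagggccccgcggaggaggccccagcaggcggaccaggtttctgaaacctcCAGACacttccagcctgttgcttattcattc
Efemp1: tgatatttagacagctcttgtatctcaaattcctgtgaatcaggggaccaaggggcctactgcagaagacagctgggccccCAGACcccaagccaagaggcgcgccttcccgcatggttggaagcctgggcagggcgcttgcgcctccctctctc
These are chr6:126742848-126742956 on the minus strand (109 bases, 77.1% G or C), chr8:67612225-67612474 on the minus strand (250 bases, 60.4%) and chr14:106811614-106811768 on the plus strand (155 bases, 59.4%).

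In the full windows the GC box was found in 4 of the 6 genes, against 33.1% of all 33469 windows, with 5 matches in Efemp2, 3 in Fbln2 and 1 each in Fbln5 and Efemp1. CAGAC was found in 5 of 6, against 50.1%, with 4 matches in Efemp1, 2 each in Fbln5 and Loxl1 and none in Efemp2. The TATA core TATAAA was in 0 of 6, against 14.2%. The E-box CANNTG was in 4 of 6, against 72.1%, with 5 matches in Fbln5, and CCAAT in 2 of 6, against 37.5%, with 2 matches in Fbln5. The motifs do not overlap in the printed stretches. A match is a description of letters only.

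**Figure D2:**
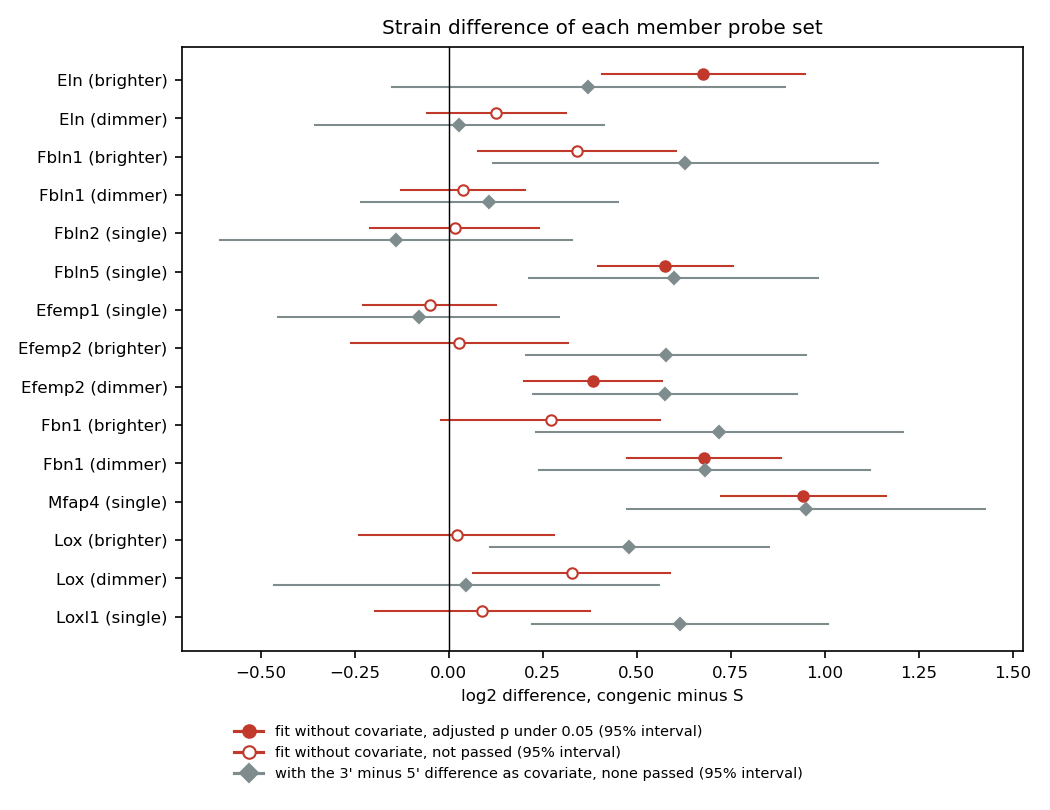
Log2 difference, congenic minus S (horizontal axis), of each probe set with its 95% interval: circles are the fit without a covariate (filled where the adjusted p passed 0.05) and diamonds the fit with the 3′ minus 5′ difference of each array as a covariate. Mfap4 stands at 0.94 and 0.95 in these fits, while Loxl1 stands at 0.09 and 0.61.

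The 2 probe sets of a gene often differed. The brighter minus the dimmer value, taken within each array, was larger in every congenic rat for Eln (2.80 to 3.02, against 2.15 to 2.68 in S rats). It was smaller in every congenic rat for Efemp2 (0.28 to 0.32, against 0.55 to 0.85 in S rats) and for Fbn1 (0.55 to 0.66, against 0.80 to 1.29 in S rats). For Fbln1 the ranges met at 1.71, and for Lox they overlapped (1.32 to 1.57 in congenic and 1.35 to 2.05 in S rats). A strain difference in Eln, Fbn1 or Efemp2 was thus seen at 1 of the 2 probe sets of the gene.

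RNA quality moved with the groups. The gap between control probe sets at the 3′ and at the 5′ end, averaged over beta-actin and Gapdh, which grows as RNA breaks or labelling stops short, was 1.26, 1.01 and 1.08 in the congenic rats and 1.56, 2.10 and 1.70 in the S rats (p = 0.1 by a two-sided exact permutation test, which cannot go lower with 3 rats a group). With this value as a covariate in limma none of the 15 probe sets passed (adjusted p from 0.45 to 0.99, with 9 of 15 under an unadjusted p of 0.05, against 7 without it). Of all 31042 probe sets 2292 lay under that unadjusted p with the covariate and 7895 without it. The median over the 10 genes was 0.59, against 0.18 without the covariate. With it the SE of a probe set ran from 0.15 to 0.23, and the median over all genes in that fit is not given here. The difference stood at 0.95 for Mfap4 and 0.60 for Fbln5, close to the values without it, and at 0.37 ± 0.23 (SE) for the brighter Eln probe set, against 0.68. For Fbn1 it was 0.72 ± 0.21 (SE) at the brighter and 0.68 ± 0.19 at the dimmer probe set, and for Efemp2 0.58 ± 0.16 and 0.57 ± 0.15. The estimates of these pairs lay close together, but with errors this wide their agreement cannot be judged. Those of Fbln1 lay apart, at 0.63 and 0.11, as did those of Eln, with the dimmer at 0.03. The difference was 0.61 for Loxl1, 0.48 for the brighter Lox and 0.05 for the dimmer Lox, so that the Lox pair stood apart too. The covariate itself separates the groups, which widens the errors. The share of RNA quality in these differences was not tested.

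The rats of a group kept a loose order across the family. S rat 1 was the lowest of all 6 rats at 9 of the 15 probe sets and congenic rat 3 the highest at 7. S rat 2, with the largest 3′ minus 5′ difference, was the highest S rat at 7, among them Loxl1 and the brighter Lox, Efemp2 and Fbn1 probe sets. The SD within a group ran from 0.05 to 0.15 in congenic rats and from 0.03 to 0.26 in S rats. It was larger in S rats at 9 of the 15 probe sets, as at 64.3% of all probe sets.

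Of 62 other genes of elastic fibre assembly, anchoring and turnover, listed by role, 55 had a probe set. By the brightest probe set of each, 7 rose (12.7%, against 2.12% of all genes called higher), 0 fell and 48 did not pass in limma. Under an unadjusted p of 0.05 in limma lay 18 of the 55, and 7895 of all 31042 probe sets. The median of the 55 was 0.05, against -0.03 for all genes. Nothing about the pathway is read from these shares, since the lists were chosen with earlier results of these data known. The pathway counts moved with those of the whole array. Without S rat 1 15 passed (13 higher and 2 lower), with 4752 of all probe sets, and without congenic rat 1 2 passed, with 350 of all. The count was 0 in limma when S rat 3, congenic rat 2 or congenic rat 3 was left out (15, 16 and 12 of the 55 under an unadjusted p of 0.05), when 0, 0 and 8 of all probe sets passed. Under that unadjusted p lay 6968, 5575 and 5359 of all 31042 probe sets.

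Among 10 genes of microfibrils and their associated proteins 1 rose, Mmrn1, which encodes multimerin-1 of platelets and endothelium (0.65 ± 0.11, log2, SE, adjusted p = 0.0231). Its mean of 5.61 lies below the lower quartile of every array. The nearest relatives of the genes above, chosen after their values were seen, did not pass: Fbn2 was at 0.10, Mfap2 at -0.01, Mfap5 at 0.38 (adjusted p = 0.0584) and Emilin1, an elastin interface protein, at 0.06. None of the 4 latent TGF-β binding proteins passed (median 0.08), and the smallest p was that of Ltbp2 (0.20, adjusted p = 0.127). None of 6 genes of crosslinking, pro-lysyl oxidase processing and copper supply passed either (median -0.03), with Atox1, a copper chaperone, at -0.18 (adjusted p = 0.197). A dimmer probe set of Bmp1, the protease that cleaves pro-lysyl oxidase, rose by 0.56 (adjusted p = 0.0137), while its brightest stood at 0.08; it was chosen after its values were seen.

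Among 5 ADAMTS and ADAMTS-like genes Adamtsl2, whose protein binds fibrillin microfibrils, rose. Its means were 8.96 ± 0.10 in congenic and 8.43 ± 0.04 in S rats (SD, n = 3 each), a difference of 0.53 ± 0.07 (SE, limma adjusted p = 0.0179). Of 5 matrix partners Dcn, which encodes the proteoglycan decorin, rose by 0.57 ± 0.10 (adjusted p = 0.0238). Vcan, the versican gene, chosen after its values were seen, stood at -0.51 and did not pass (adjusted p = 0.0782). Of 10 receptor genes Ctsa rose by 0.49 ± 0.09 (adjusted p = 0.0282). It encodes cathepsin A, a lysosomal enzyme that is also a subunit of the elastin receptor complex, and the integrin genes of the list did not pass at their brightest probe sets.

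Turnover genes moved in 1 direction where they passed. Of 8 elastin-degrading or related proteases Mmp14 rose by 0.53 ± 0.12 at its brighter probe set (log2, SE, limma adjusted p = 0.0441). At its dimmer one Mmp14 stood at 0.19, with overlapping groups (limma adjusted p = 0.24). It encodes a membrane-bound protease known above all for activating pro-MMP2. Mmp12, the macrophage elastase, chosen after its values were seen, stood at 0.37 (adjusted p = 0.0557). Of 7 inhibitors Timp1 rose by 0.53 ± 0.08 (adjusted p = 0.0214) and Timp2 by 0.32 ± 0.07 (adjusted p = 0.0399), both inhibitors of matrix metalloproteases, and the median of the 7 was 0.32. A dimmer probe set of Timp3 (0.97, limma adjusted p = 0.0174) and the dimmer one of the integrin gene Itgb1 (0.48, adjusted p = 0.0201), both chosen after their values were seen, rose while the brightest ones stood at -0.12 and 0.04. With the 3′ minus 5′ covariate 0 of the 55 passed, with 18 under an unadjusted p of 0.05 in limma, as were 2292 of all 31042 probe sets.

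**Figure D3:**
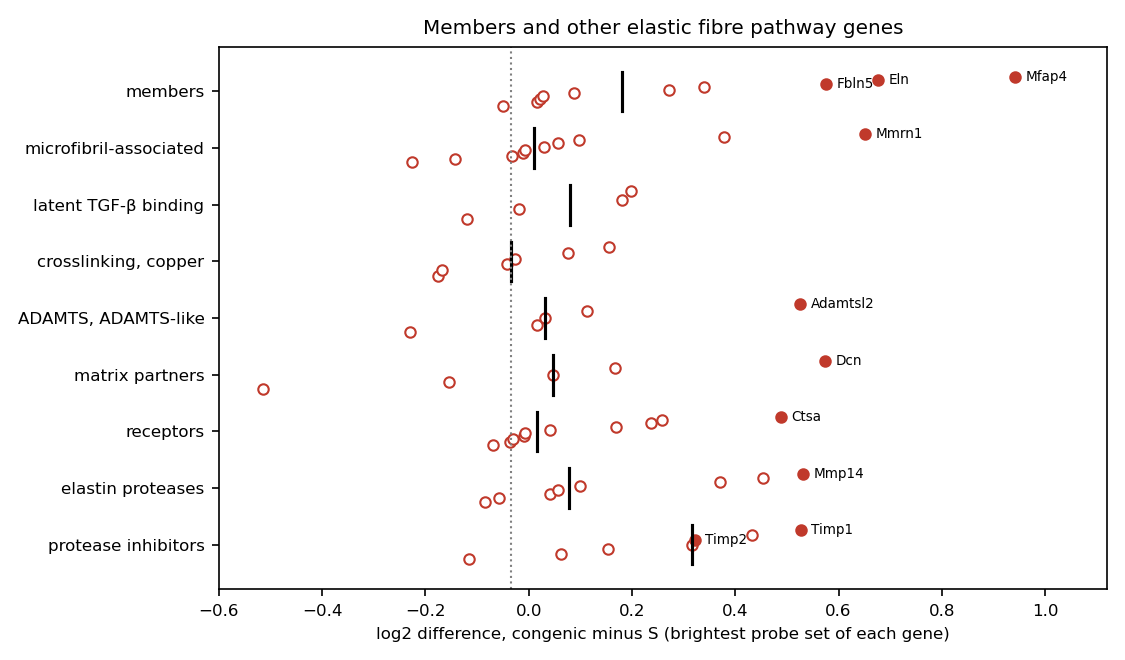
Log2 difference, congenic minus S (horizontal axis), at the brightest probe set of each of the 10 elastic fibre genes (top row, members) and of 55 other pathway genes by role. Each circle is a gene, filled and named where it passed an adjusted p of 0.05, black bars are medians, and the dotted line is the median of all genes at -0.03.

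Markers of the cells that make elastic fibres, and of other cells a kidney piece can hold, were read as well. Some of them passed, beside 2.12% of all genes passing as higher and 2.67% as lower. In such bulk tissue fewer cells of a type and less RNA per cell cannot be told apart. Of 8 fibroblast markers 3 rose and 5 did not pass (median 0.33): Lum, which encodes lumican, by 1.76, Dcn by 0.57 and Col1a1, a type I collagen gene, by 0.44, with Col3a1, the brightest, at 0.23. Their summed linear intensity ran from 30590 to 33310 in congenic and from 22530 to 28470 in S rats. None of 8 smooth muscle and pericyte markers passed (0 by limma, median 0.33), with Tagln at 0.34 and Acta2 at 0.57, and the sums were 9043 to 10170 in congenic and 6642 to 9018 in S rats. Of 6 macrophage markers C1qa (0.42) and C1qb (0.46) rose and 4 did not pass, among them Csf1r at -0.04, with sums of 4075 to 4587 in congenic and 3365 to 4419 in S rats.

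The summed levels of the urothelium, adipocyte and endothelial lists were lower in every congenic rat than in any S rat. Gene by gene this held for 4 of 5 in the urothelium, 2 of 6 in the adipocyte and 1 of 5 in the endothelial list. The 1 endothelial gene was Vwf, and the other 4 overlapped. Over all genes every congenic rat lay below every S rat in 3202 of 14217. Of 5 urothelium markers Upk1a, a uroplakin, fell by 0.80 and 4 did not pass, with Upk3a at -0.51 and Krt5 at -0.43, and the sums were 667.3 to 725.1 in congenic and 809.9 to 1157 in S rats. Of 6 adipocyte markers Cidec fell by 0.61 and 5 did not pass, with Lpl at -0.21 and sums of 4017 to 4844 in congenic and 5040 to 7062 in S rats. Of 5 endothelial markers Vwf, the von Willebrand factor gene, fell by 0.54 and 4 did not pass, with Emcn at -0.02, Tek at -0.09, Kdr, a VEGF receptor gene, at 0.28 (chosen after its values were seen), a median of -0.02 and sums of 6030 to 6227 in congenic and 6357 to 6791 in S rats. Of 7 proximal tubule markers Slc5a2 rose by 1.67 while Kap and Miox stood at -0.03 and -0.01, with sums of 92670 to 96100 in congenic and 88830 to 94090 in S rats. No detection calls were at hand, so no marker can be called absent, and the part of tissue makeup in the elastic fibre values was not tested.

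**Figure D4:**
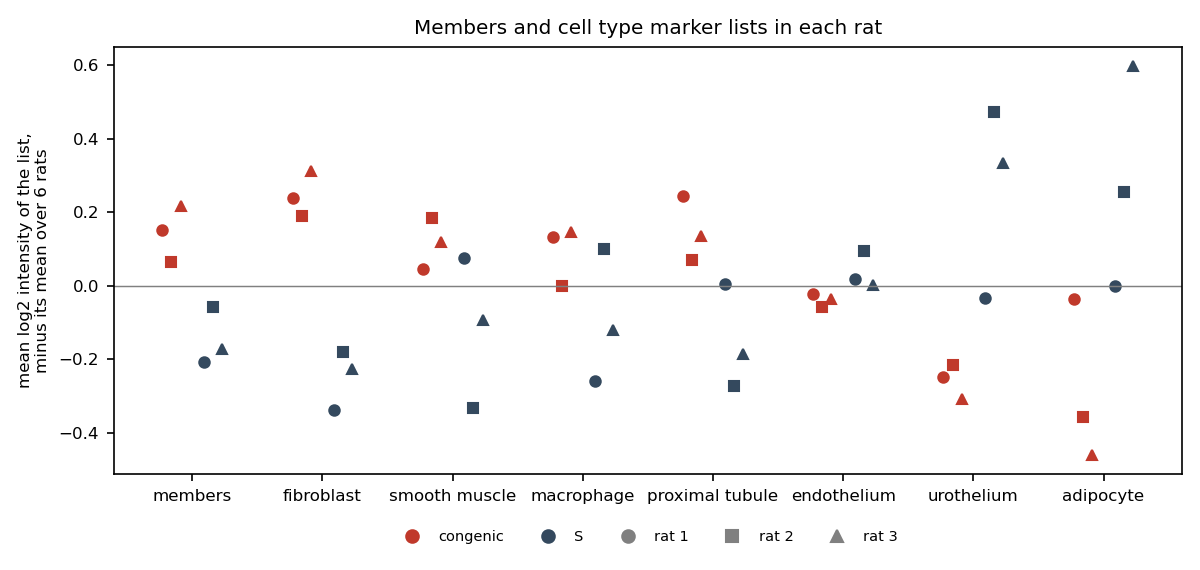
Mean log2 intensity of the 10 elastic fibre genes and of 7 marker lists in each rat, minus the mean of that list over the 6 rats (vertical axis), by the brightest probe set of each gene. Congenic rats lie above all S rats for the elastic fibre, fibroblast and proximal tubule lists and below them for urothelium, adipocyte and endothelium, and the smooth muscle and macrophage lists overlap. A mean can rest on a single gene. Of 7 proximal tubule genes 2 had every congenic rat above, 1 every one below and 4 overlapped (median difference 0.04, Slc5a2 at 1.67). Of 5 endothelial genes only Vwf had every congenic rat below.

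The elastic fibre genes were also set against the mean log2 value of the 8 fibroblast markers in the same array, Lum included. By their brightest probe sets 1 of 10, Mfap4, still had every congenic rat above every S rat, 5 had every congenic rat below, and 4 overlapped, with a median difference of -0.32. The marker mean itself was higher by 0.50 in congenic rats, and by 0.31 over the 7 markers other than Lum. Subtracting such a mean lowers the difference of any gene, while the median of all genes stood at -0.03 before it. Against those 7, a choice made after seeing the data, Mfap4 (0.63) and Fbln5 (0.26) had every congenic rat above, 4 genes had every one below and 4 overlapped, with a median of -0.13. With Lum the relative difference at the brightest probe sets was 0.45 for Mfap4, 0.18 for Eln, 0.08 for Fbln5 and -0.47 for Efemp2. At the dimmer Fbn1 probe set it was 0.18, with every congenic rat above every S rat. At the dimmer Efemp2 probe set it was -0.11, with every congenic rat below. Against the smooth muscle markers 2 of 10 stayed above, Mfap4 (0.71) and Eln (0.44), 1 lay below and 7 overlapped, with a median of -0.05. Such ratios show unequal change within an array and not which side changed. The same counts over all genes are not given here, so nothing about the elastic fibre genes is read from these counts.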

How the data were processed

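Kidney RNA of 6 rats was measured on 1 array each. The deposited values were read as log2 probe set intensities that the authors had already made comparable between arrays, judged from their range and near-equal array medians (7.48 to 7.51); no source used here names the unit or the software. Groups and rat numbers came from sample titles. Tests excluded 57 control probe sets, and none of the array pairs was identical (correlations 0.985 to 0.998). Gene names came from the platform annotation, brought up to date through Entrez identifiers in RefSeq (GRCr8): 20826 had 1 symbol, 436 several, 9780 none listed.

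Groups were compared, congenic minus S, with limma 3.58.1 in R 4.3.3 on all 31042 probe sets (lmFit, eBayes, two-sided, Benjamini-Hochberg over all; residual degrees of freedom 4, and 8.49 with the prior), and the method was tested on simulated data. Figures used matplotlib 3.10.9. The genes, lists, tests and alternatives were chosen with earlier results of these data known. Named are all probe sets of the 10 genes, of each pathway role the genes that passed plus that with the smallest p, and of each marker list the 2 brightest genes plus any that passed; a few further genes are marked in the text as picked with their values known. The fit was repeated with quantile normalization, with median centring, without dim probe sets (below percentile 40), with an intensity trend, with array weights, with a block for rat number, with the 3′ minus 5′ covariate, with the mean of a gene's probe sets, and without each rat in turn.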

Additional observations from a re-analysis of the deposited data

How the results depend on the processing

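Of 193 recomputed differences of the 15 elastic fibre probe sets over 13 alternatives, 178 kept their sign. Of the 193, 183 moved by less than 1 SD between rats, but many could not move that far. The intensity trend, the dim filter and the rat number block leave a difference unchanged. Leaving out 1 of the 3 rats of a group shifts it by less than 1 SD in any case. The 10 larger moves came with the 3′ minus 5′ covariate or with array weights. None of the 5 that had passed changed sign. Without 1 rat at a time, the counts of passing probe sets ran from 0 to 6 for the elastic fibre probe sets, from 0 to 3 for the genes, from 0 to 15 for the wider pathway genes and from 0 to 4752 for all probe sets (1862 with all rats); the median of the 10 genes ran from 0.072 to 0.30 and the 3′ minus 5′ difference from -0.78 to -0.51. With the 3′ minus 5′ covariate 0 of all probe sets passed in limma (2292 under an unadjusted p of 0.05), hence 0 elastic fibre probe sets, 0 of the 10 genes (7 under an unadjusted p of 0.05) and 0 pathway genes, while the median was 0.59. Array weights gave 6077 of all probe sets and 16 pathway genes, and the mean of a gene's probe sets 11 pathway genes. The cause of these shifts was not tested. Rats with the same number did not deviate together (correlations of deviations -0.01, -0.18 and -0.14), and pairs with unlike numbers ran from -0.25 to 0.38. With 3 rats a group this cannot exclude a pairing by number. With the rat number as a replicate block 658 of all probe sets passed, and 4 elastic fibre probe sets, 3 genes and 5 pathway genes, with the median at 0.18. The dim filter left 13 of the 15 probe sets.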
